A study of Drosophila melanogaster with 2 samples.

Results

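A set of 10 genes that drive or restrain the cell cycle, out of 13945 protein-coding genes annotated in Drosophila melanogaster, was examined for peaks of the protein CG17568. They are E2f1, Dp, Rbf, CycD, CycE, dap, stg, CycA, CycB and fzr, chosen by name for their roles and not by a threshold on the peaks. Earlier results of these data were known when the genes were chosen, so their shares are not those of a blind choice. Every peak summit from 2000 bp before to 2000 bp after each gene body was collected. The data are chromatin immunoprecipitation sequencing (ChIP-seq) peaks from whole embryos of both sexes, 0 to 20 h old, of a transgenic line carrying CG17568 tagged at its C terminus with green fluorescent protein. The design has 1 group with 2 biological replicates and no second condition. All tissues and stages of the collection are mixed, so a peak cannot be tied to a cell type or to dividing cells. The labels disagree on the material, since the assay and antibody fields name a transcription factor ChIP while the free text speaks of an input control, and the values describe binding only if the assay and antibody fields are right.

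E2F1 and Dp proteins pair as a transcription factor that switches on genes for DNA replication, and Rbf, the retinoblastoma homolog, binds this pair and silences its targets. Cyclin D with Cdk4 and cyclin E with Cdk2 push cells towards replication, and Dacapo, from dap, inhibits cyclin E with Cdk2. String, from stg, is the Cdc25 phosphatase that removes the block on Cdk1, so that cyclins A and B can drive mitosis, while Fizzy-related, from fzr, helps degrade mitotic cyclins. In the fly embryo, zygotic stg transcription times the divisions after the blastoderm stage, and dap and fzr act as cells stop dividing.

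The sequences under 8 of the sites on chromosomes 2L, 3L, 3R and X are shown because they include 2 of the 3 strongest sites, which lie in the flanks, and sites inside the genes or at their promoters. Each is read 5′ to 3′ on the minus strand, on which E2f1, CycE, CycA, stg and fzr all lie, from the Release 6 genome (dm6). Each run is centred on the summit and holds 50 bases to either side, or is 29 bases long where untranslated sequence lies within 50 bp. Capitals mark CAGCTG, an E-box.
E2f1 upstream flank, in Archease (chr3R:21662629-21662729): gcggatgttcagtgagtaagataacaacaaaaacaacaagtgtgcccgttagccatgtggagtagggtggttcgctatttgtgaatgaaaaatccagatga
E2f1 promoter (chr3R:21660886-21660986): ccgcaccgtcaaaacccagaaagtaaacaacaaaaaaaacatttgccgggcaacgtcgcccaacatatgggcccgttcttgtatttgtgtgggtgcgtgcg
E2f1 intron (chr3R:21641697-21641797): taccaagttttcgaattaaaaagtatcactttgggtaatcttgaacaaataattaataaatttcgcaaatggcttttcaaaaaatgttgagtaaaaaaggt
CycE intron (chr2L:15747200-15747300): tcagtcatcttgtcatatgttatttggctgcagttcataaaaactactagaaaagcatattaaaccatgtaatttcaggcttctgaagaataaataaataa
fzr downstream flank (chrX:4666944-4667044): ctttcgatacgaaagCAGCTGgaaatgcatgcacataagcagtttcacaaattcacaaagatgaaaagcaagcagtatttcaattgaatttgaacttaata
fzr promoter (chrX:4679458-4679486): aatcgcgcattgccaacacgtaacgtacc
CycA promoter (chr3L:11833388-11833416): caacgctgccgtgacacaaacttccgtac
stg promoter (chr3R:29255323-29255351): taaaaacCAGCTGctcggcatattcagca

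The windows of 50 bases to either side of a summit differed widely in composition. Their GC content was 50.5% at the E2f1 promoter and 42.6% at the site in Archease, but 25.7% at the E2f1 intron and 28.7% at the CycE intron. Over all 16 summits of these genes in the thresholded list it ran from 20.8% to 52.5% with a median of 32.7%, while all 3396 summits of that list had a median of 33.7% with quartiles of 28.7% and 40.6%. Known motifs were rare within 50 bp of the 16 summits, sought on either strand. The E-box CAGCTG was found at 2, the stg promoter (matched at 2 positions) and the downstream flank of fzr, and at 4.15% of all 3396 summits. The TATA motif TATAAA was found at the stg and Dp summits, and at 22.2% of all 3396. An E2F site, read as TTTNNCGC with G or C at both N, was at 0 of the 16 and at 1.44% of all. GAGAG (12.0% of all), the replication element TATCGATA (0.471%) and the Zelda motif CAGGTAG (0.648%) were likewise at 0 of the 16. Of the 10 8-mers most enriched at the 3396 summits over windows 300 bp to either side, an enrichment that these same summits helped to define, at least 1 was present at 15.5% of all 3396 and at 1 of the 16. That was TAGGTAAA at the CycB site. A missing match says only that these letters do not occur in the window.

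The authors deposited 4 peak lists. There are 3 relaxed lists of 30000 peaks each, called on replicate 1, on replicate 2 and on both replicates pooled, and a list of 3396 peaks thresholded by the irreproducible discovery rate (IDR), a measure of how well ranks repeat between replicates. The IDR list holds the pooled peaks of highest signal, since the same 3396 summits and signals stand in both and no other pooled peak reaches its lowest signal of 127. The signal column has no stated scale, so ranks within a list (rank 1 is the highest signal) are used to compare sites. Sequencing depth is unknown, since the lists hold no read counts.

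Of the 10 genes, 8 had at least 1 IDR summit in their window (80.0%), against 20.8% of all protein-coding genes. Together they held 16 IDR summits, 8 of them at E2f1, 2 at fzr and 1 each at Dp, CycA, CycB, CycE, stg and dap. Rbf and CycD had none. The genes are long, with a median body of 5080 bp against 2166 bp over all coding genes, and longer genes held a summit more often. Among the 3885 coding genes at least as long as Rbf, 38.0% had an IDR summit, and among the 1643 at least as long as fzr, 50.6%. Per length, the joined windows of the 10 genes held 11.1 IDR summits per 100 kb, or 8.0 without E2f1, against 2.99 per 100 kb in the joined windows of all coding genes. With the pooled relaxed list 9 of the 10 genes had a summit (90.0%), against 47.0% of all coding genes, and only Rbf had none.

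**Figure D1:**
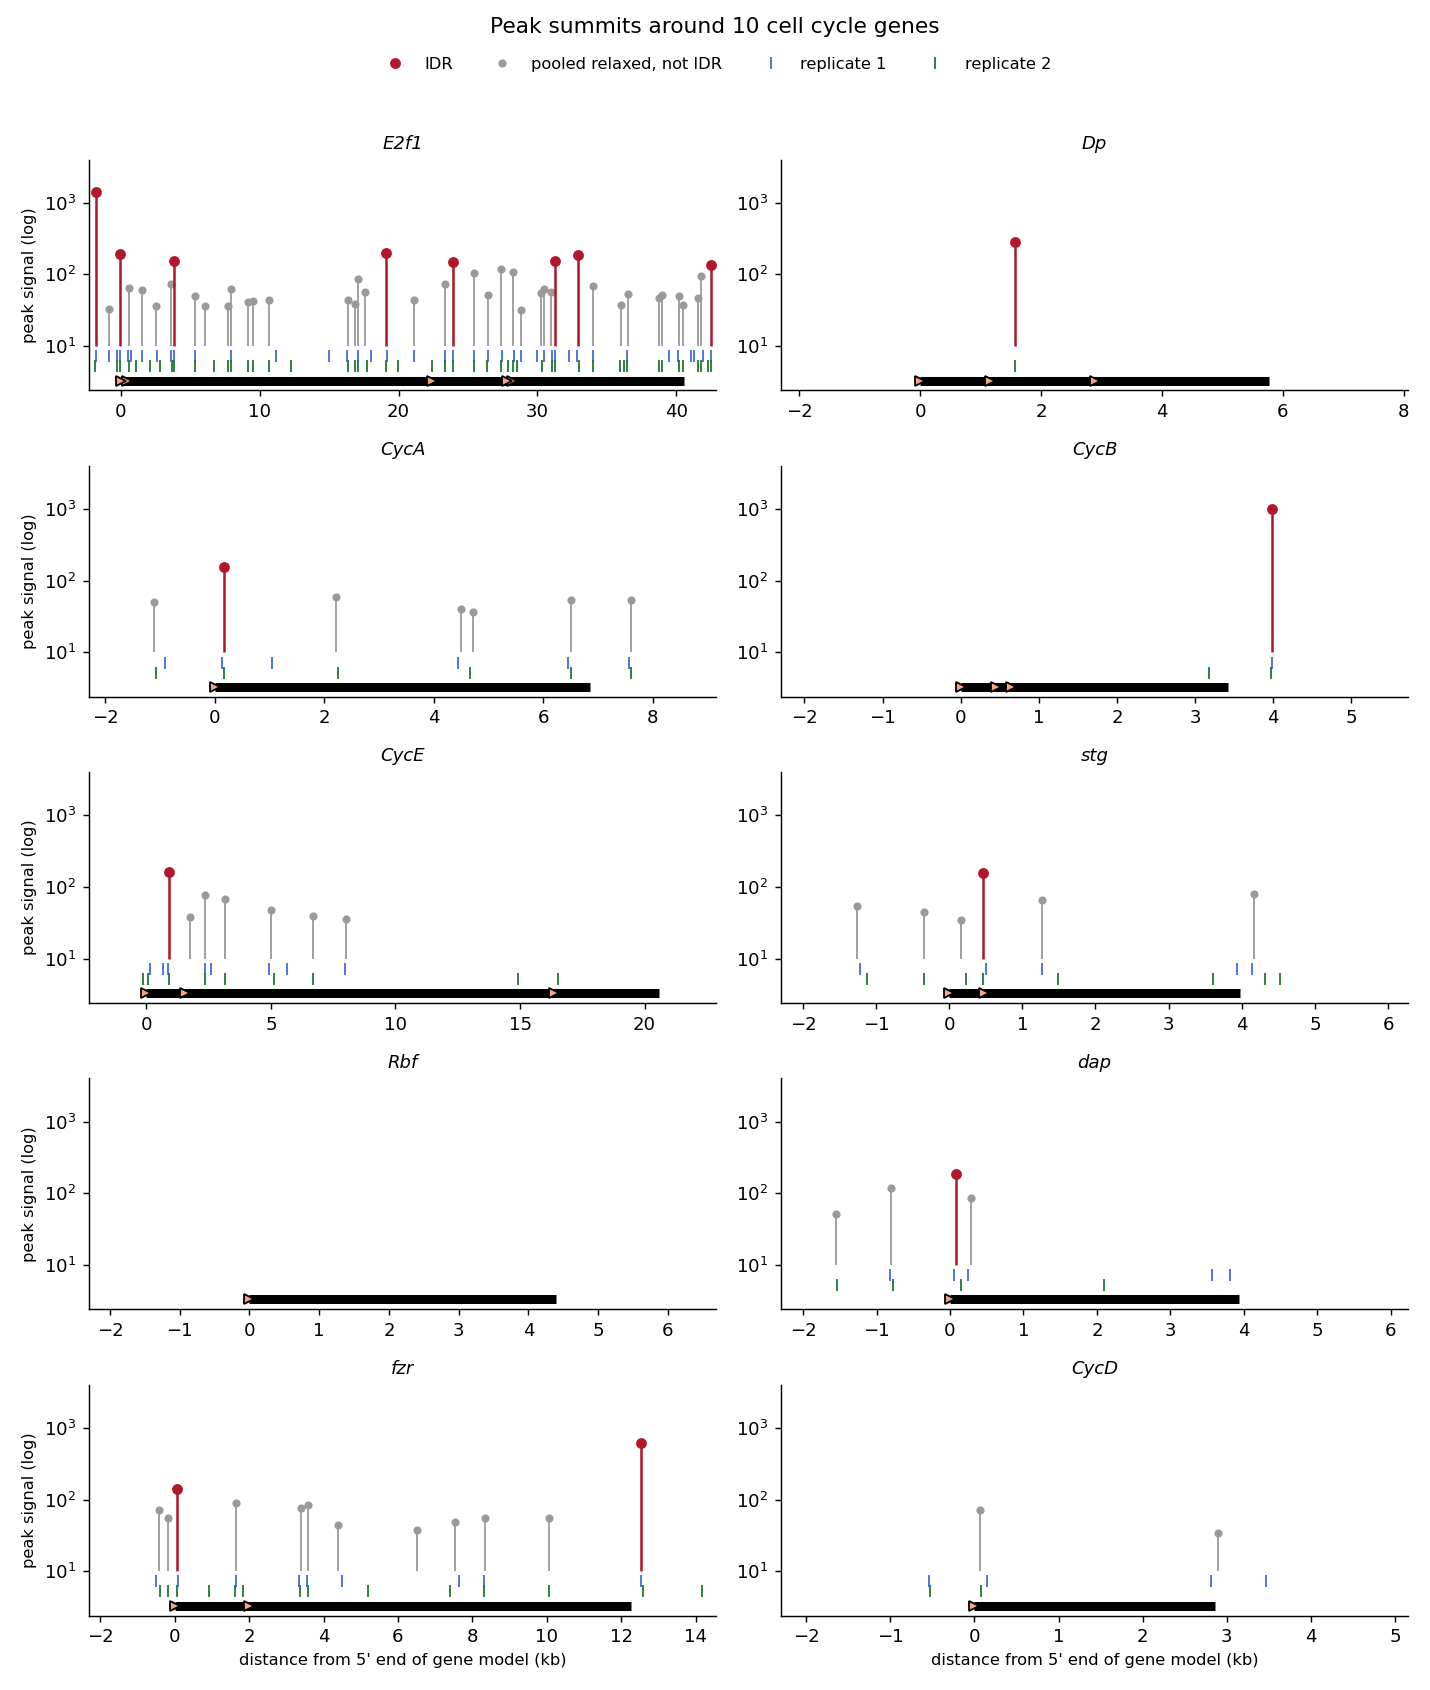
Peak summits around the 10 genes, by distance in kb from the 5′ end of the gene model (horizontal) and by signal in the pooled list on a log axis (vertical), for IDR summits (red) and other pooled relaxed summits (grey). Ticks mark summits of replicate 1 (blue) and replicate 2 (green), the black bar is the gene body and triangles are start sites; E2f1 holds 8 IDR and 43 pooled summits, while Rbf holds none in any list.

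The strongest sites near these genes lay outside them. Ranks 21, 60 and 166 of the IDR list were all in the flanks, of E2f1, CycB and fzr. The other flank site, in InR beyond the 3′ end of E2f1, was the weakest of the 16, at rank 3036. The 12 IDR summits inside a gene body or within 500 bp of its own transcription start site (TSS) ranked from 831 to 2883 with a median of 2264.5, against a median of 1698.5 over the list, and 3 of these 12 were among its 1698 highest. The −log10 q-values that the authors' list gives for the 16 ran from 2.19 at the site in InR to 3.20 at the 3 highest flank sites. Of all 16, 9 summits were in introns, including the sites in the neighbouring genes Archease and InR, and 4 were in 5′ UTRs. Another 3 were between genes, including the E2f1 promoter summit, and 0 were in coding sequence or 3′ UTRs. A summit within 500 bp of the gene's own TSS was present at 6 of the 10 genes (60.0%), E2f1, Dp, CycA, stg, dap and fzr, against 10.1% of all coding genes. This count was 6 without replicate 1 and 3 without replicate 2. In the latter, Dp, stg and fzr had none in the top 3396 peaks of replicate 1. Replicate 1 did have summits at the stg and fzr promoters, at ranks 4763 and 3738, but none at Dp. The promoter count was 2 among the 1698 highest IDR peaks, and 5 with only the 5′ end of each gene model as its TSS. The share of 10.1% is for the full IDR list and was not matched for gene length or for the number of start sites. No share of all coding genes is given for the other settings, so their counts cannot be set against 10.1%.

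**Figure D2:**
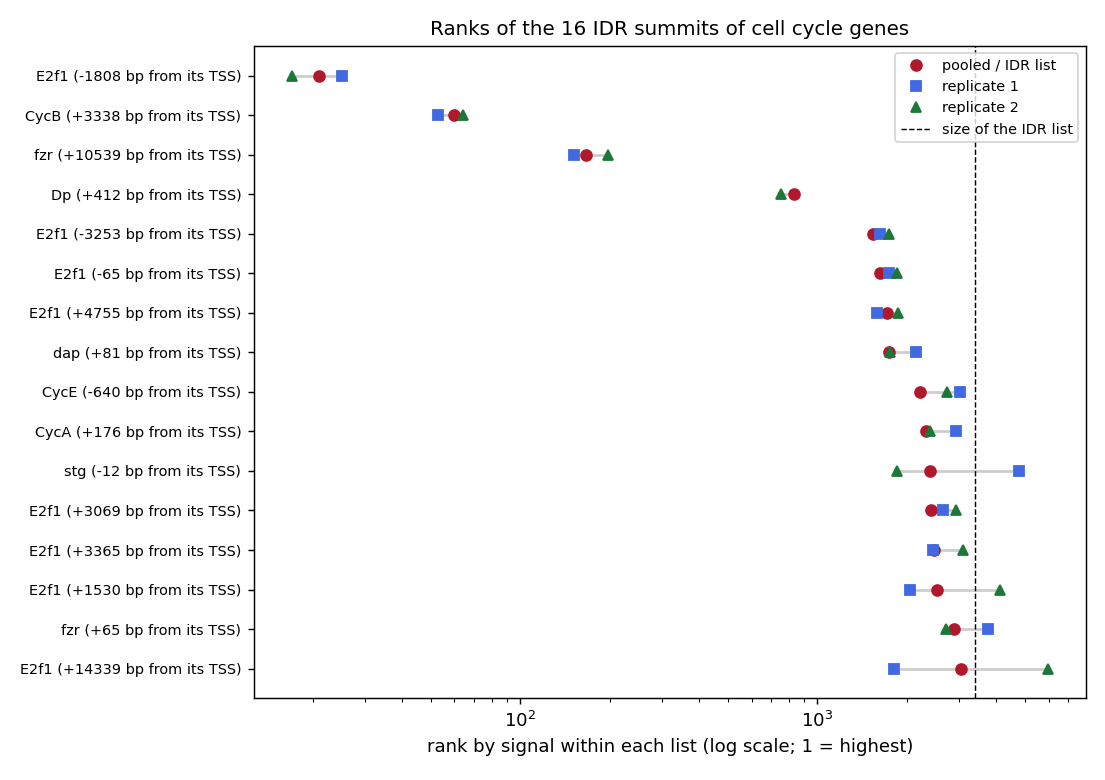
Rank by signal, on a log axis where 1 is the highest, of the 16 IDR summits in the pooled list (red circles), replicate 1 (blue squares) and replicate 2 (green triangles), labelled by gene and by distance from that gene's nearest start site (negative is upstream). The 3 flank sites at ranks 21, 60 and 166 stand clear of the others, the Dp summit has no replicate 1 point, and the dashed line marks rank 3396.

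E2f1 (FBgn0011766), which encodes the activator of the E2F family, is on 3R from 21620304 to 21660871 on the minus strand and has 5 start sites. Its strongest nearby peak had a signal of 1422 and rank 21, with the summit at 21662679, 1808 bp upstream of E2f1. It ranked 25 in replicate 1, with a signal of 670 there, and 17 in replicate 2, with a signal of 726. This summit was in an intron of the neighbouring gene Archease, 293 bp downstream of the Archease TSS and so nearer to that gene. Archease, which lies on the same strand, ends 314 bp before E2f1 begins.

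The promoter summit of E2f1 was at 21660936, 65 bp upstream of its first TSS, with a signal of 193 and rank 1622. It ranked 1746 in replicate 1 and 1856 in replicate 2, and both replicate summits were within 12 bp of it. The other 4 start sites had no IDR summit within 500 bp. The cluster of start sites at 21632693 and 21633073 had pooled relaxed summits 69 bp downstream (rank 4343) and 403 bp upstream (rank 3692). Both fell outside the 3396 peaks of the IDR list. The upstream one ranked 1843 in replicate 1 and 9887 in replicate 2.

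Inside E2f1, 5 IDR summits were spread over 29129 bp of introns. The highest, at 21641747 with a signal of 199 and rank 1534, was 3253 bp upstream of the nearest E2f1 start site, in an intron of 2 of the 6 transcripts. The TSS closest to it, 3095 bp away, belongs to lncRNA:CR46056, a non-coding gene of 437 bp within E2f1. Summits at 21627938 (rank 1709) and 21629624 (rank 2419) lay in intronic sequence of all 6 transcripts, 4755 and 3069 bp downstream of a start site. The remaining summits at 21636964 (rank 2526) and 21657067 (rank 2477) were 1530 and 3365 bp downstream of one. All 5 intronic summits had a counterpart within 100 bp in both replicates, at ranks 1590 to 2653 in replicate 1 and 1743 to 4106 in replicate 2.

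The last IDR summit of the E2f1 window, at 21618354, lay within the other neighbour. It was in an intron of InR, the insulin receptor gene, 682 bp downstream of an InR start site and 1950 bp beyond the 3′ end of E2f1. Its rank was 3036, with rank 1811 in replicate 1 and 5960 in replicate 2, the widest gap between replicates among the IDR summits found in both.

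E2f1 was also the most densely covered of the 10 genes. Its window held 43 pooled relaxed summits (9.65 per 10 kb), 40 in replicate 1 and 48 in replicate 2. Of all 13945 coding genes, 24 had 8 or more IDR summits, and of the 453 at least as long as E2f1, 22 did (4.86%). One of the relaxed summits, at 21621882 with rank 15166, fell within mir-998, a microRNA gene inside E2f1. Replicate 2 had a summit there at rank 9839, but replicate 1 had none within 100 bp.

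**Figure D3:**
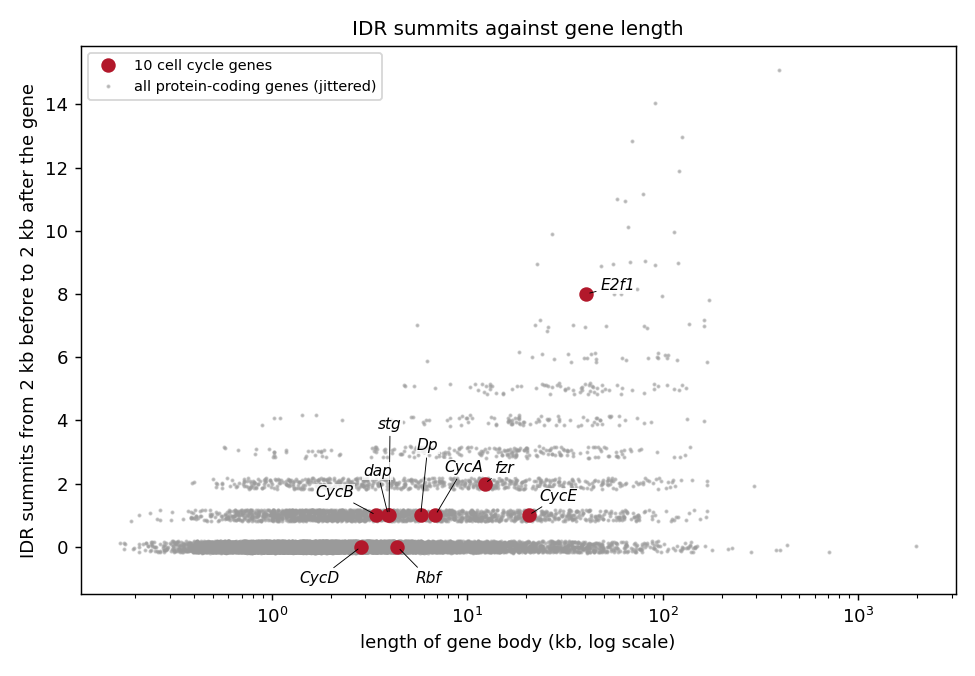
Number of IDR summits from 2 kb before to 2 kb after each gene (vertical) against the length of its body in kb on a log axis (horizontal), for the 10 cell cycle genes (red) and all protein-coding genes (grey, jittered vertically). E2f1, with 8 summits, lies above most genes of its length, and the other 9 genes, with 0 to 2 summits, lie among the bulk.

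Dp (FBgn0011763), the dimer partner of E2F1, is on 2R from 13222433 to 13228202 and had a peak in 1 replicate only. Its single IDR summit, at 13224003, had a signal of 284 and rank 831, the highest of the 12 sites at the genes themselves. It was in the first intron of 2 of the 3 transcripts, 412 bp downstream of the second start site. In replicate 2 the summit ranked 756 and lay 4 bp away, but replicate 1 had no peak of any rank in the Dp window, and its nearest summit was 21377 bp distant. The peak was narrow, at 187 bp, where 55.5% of IDR peaks had the same width of 396 bp.

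Rbf (FBgn0015799), the brake on the E2F pair, is on X from 797090 to 801479 and was the only gene without a peak in any of the 4 lists. The nearest pooled relaxed summit was 22546 bp from its start and the nearest IDR summit 36343 bp. The gap between pooled summits around Rbf spanned 57.4 kb. Absence from a list of 30000 peaks can mean a signal under that of its lowest peak, and does not show that there was no binding.

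CycD (FBgn0010315), the partner of Cdk4, is on X from 15906822 to 15909676 and had no IDR summit, yet both replicates agreed on a site upstream of it. Replicate 1 placed a summit 541 bp upstream of the TSS at rank 3908, with a signal of 61.6. Replicate 2 placed one 531 bp upstream at rank 1976, with a signal of 93.1 in its own list. These summits were 10 bp apart, but the pooled list had no summit within 100 bp, and its nearest was 610 bp away, at a separate site 69 bp downstream of the TSS with rank 8566. Such sites were uncommon among strong peaks. Of 2276 summits in the top 3396 of replicate 1 that replicate 2 shared in its own top 3396, 42 (1.85%) lacked a pooled summit within 100 bp. The CycD site does not belong to those 2276, since it was below rank 3396 in replicate 1. Among all 13221 summits shared by the replicates at any rank, 4.13% lacked one.

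CycE (FBgn0010382), which with Cdk2 starts replication, is on 2L from 15727581 to 15748150. Its IDR summit at 15747250 had a signal of 161 and rank 2214, with rank 3020 in replicate 1 and 2725 in replicate 2. The site was 900 bp inside the gene and 640 bp upstream of the second of its 3 start sites, in the first intron of 2 of the 6 transcripts. The window held 7 pooled relaxed summits, all in the gene body, 2.85 per 10 kb. The 2 replicates also shared a weak site near the first CycE start site, 133 bp downstream of it at rank 14000 in replicate 1 and 49 bp downstream at rank 9402 in replicate 2, which the pooled list lacked.

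The Cdk inhibitor gene dap (FBgn0010316), on 2R from 9712321 to 9716256, had its IDR summit at 9712402 in the 5′ UTR, 81 bp downstream of its only TSS. The signal was 186 and the rank 1745, with rank 2141 in replicate 1 and 1755 in replicate 2. A weaker pooled summit 802 bp upstream, at rank 3791, missed the IDR list.

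Among the genes of mitosis, stg (FBgn0003525), on 3R from 29251826 to 29255800, had its IDR summit at 29255337, 12 bp upstream of the second of its 2 start sites and within the 5′ UTR of the longer transcript. The signal was 155 and the rank 2397. The replicates differed here, with rank 4763 in replicate 1 and rank 1853 in replicate 2, although their summits lay 41 and 1 bp from the pooled one. Of the 6 pooled relaxed summits in its window, the next highest was past the 3′ end at 29251638 with rank 7315, where replicate 1 had its highest stg peak, at rank 2955.

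CycA (FBgn0000404), on 3L from 11826719 to 11833578, had its IDR summit at 11833402 in the 5′ UTR, 176 bp downstream of its only TSS. The signal was 158 and the rank 2315, with rank 2917 in replicate 1 and 2398 in replicate 2. Its other 6 pooled relaxed summits ranked 11763 or lower.

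CycB (FBgn0000405), on 2R from 22803521 to 22806948, had a single strong site beyond its 3′ end and no pooled summit in its body. The IDR summit at 22802965 had a signal of 998 and rank 60, and ranked 53 in replicate 1 and 64 in replicate 2, each within 7 bp. It was intergenic, 556 bp past the end of CycB and 785 bp past the end of the convergent gene blw, in the 1340 bp between their 3′ ends. The nearest TSS was nonetheless that of CycB, 3338 bp away. On the other side of CycB the next pooled summit was 47447 bp from the gene, so the 3 start sites of CycB had no pooled relaxed peak nearby. In the body, 1 weak summit stood in replicate 2 alone, at rank 25340.

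The gene fzr (FBgn0262699), on X from 4667290 to 4679537, had IDR summits at both ends. The stronger, at 4666994 with a signal of 616 and rank 166 (rank 151 in replicate 1, 197 in replicate 2), was 296 bp past its 3′ end and 294 bp upstream of the TSS of the next gene, CG3009. The weaker, at 4679472, was 65 bp downstream of the first TSS of fzr in its 5′ UTR. This promoter site had a signal of 139 and rank 2883, with rank 3738 in replicate 1 and 2714 in replicate 2.

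Replicate recovery was close to that of the whole list. Of the 16 IDR summits, 15 (93.8%) had a summit within 100 bp in both replicate lists, against 94.5% of all 3396, and Dp was the exception. In the top 3396 of both replicates 11 of 16 (68.8%) were found, against 66.5% of all. The 5 that were not are Dp, stg, the fzr promoter, the E2f1 intron summit at 21636964 and the site in InR. For the 15 sites found in both replicates, the larger rank was a median of 1.22 times the smaller and at most 3.29 times. Of the 83 pooled relaxed summits of the 10 genes, 41 (49.4%) were in both replicates, against 43.6% of all 30000. Since IDR summits were chosen from both replicates together, these shares follow in part from that choice.

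A wider list of 66 further cell cycle genes, covering cyclins, Cdks, checkpoint kinases, replication licensing, the E2F and Myb complexes and the anaphase machinery, had IDR summits near 15 (22.7%, beside 20.8% of all coding genes). At their own promoters 8 of the 66 (12.1%) had one, beside 10.1% of all, and 26 (39.4%) had a pooled relaxed summit in the window, beside 47.0%. These 3 shares of genes are near the background. Per length the list stood higher, with 5.76 IDR summits per 100 kb of its joined windows against 2.99 in those of all coding genes. Its 30 IDR summits lay near those 15 genes, with 5 at trbl, 4 at Cdk4 and 3 each at grp, Cdc7, Cdc14 and CycG. Of the pooled relaxed summits of the list, 28.8% were IDR summits, against 12.4%. For pooled relaxed summits it held 20.0 per 100 kb, against 24.2. The highest signals were at Cdc16, an anaphase-promoting complex subunit, with rank 330 and the summit 130 bp upstream of its TSS, and at twe, the germline Cdc25 phosphatase, with rank 369. The twe summit was 42 bp from the start of EndoGI, and that of lin-52 (rank 484) was 95 bp from the start of CG15771. Cdk4, the partner of cyclin D, had 4 IDR summits with a best rank of 583 in its own intron, 723 bp from the start of asRNA:CR44375, and trbl, which promotes String degradation, had 5 with a best rank of 596, also in an intron. Summits near mip40 (rank 590) and grp (rank 851), the fly Chk1 kinase gene, were closer to the start sites of Tab2 and CG31807. Cdc7, a replication kinase gene, had its best summit 131 bp upstream of its TSS at rank 1188. In 5 of the 15 genes the strongest summit had the gene's own TSS as its nearest.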

How the data were processed

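Peak lists of CG17568-GFP embryos (replicates 1 and 2, and both pooled) were used as the authors deposited them. Per the deposited text files they are narrowPeak lists on dm6, each replicate or pooled list derived from its alignments and 1 further file of unstated content. As to peak caller, aligner and IDR cutoff, these were not given in the sources used here. Signal values, as deposited, were used for ranks within a list only, and the deposited −log10 q-values were not compared between lists. Summits (column 2 plus column 10) were placed, counted from 1, on Ensembl release 115 gene models (BDGP6.54, dm6 coordinates) without transposable elements. A replicate summit within 100 bp counted as recovered. Sequences come from NCBI RefSeq's Release 6 assembly. Analysis used Python 3.11.15, pandas 2.3.3 and numpy 2.4.6, and the counting was tested on simulated summits. No test was run, since there is 1 group and genes and peaks are not replicates. Members, the wider list (3 of 66 symbols matched through RefSeq synonyms) and the rules were chosen with earlier results of these data known. Named genes are the 10 members, the gene with the TSS nearest each of their IDR summits, and the 8 wider-list genes of highest signal. Cdc14 and CycG were named outside this rule, for holding 3 IDR summits each. Neighbours at gene ends, mir-998, the CycD site and the joint count of the 10 8-mers were added after their values were seen. Alternatives varied the flank, the TSS window, the matching distance, the threshold and the replicate used.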

Additional observations from a re-analysis of the deposited data

How the results depend on the processing

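The count of 8 genes with an IDR summit was 9 without replicate 1 and 7 without replicate 2, where the other replicate's own top 3396 peaks replaced the IDR list, and 7 or 8 under other flanks, but 4 with the 1698 highest IDR peaks alone. CycD was the gene gained in replicate 2. The 16 summits likewise became 6 with those 1698 peaks, and the 6 genes with a promoter summit became 2. A shorter list lowers counts for other genes too. No share of all coding genes is given at these settings, so the drops are not shown to be particular to these genes. Without replicate 2 the promoter count was 3, and without replicate 1 it was 6: Dp, stg and fzr had no promoter summit in the top 3396 of replicate 1. Recovery in both replicates (15 and 11 of 16) stayed within 13 to 15 and 9 to 11 under other matching distances. The median rank of 1979.5 was 2214 with a flank of 500 bp, 2315 in gene bodies alone and 1727 with 5000 bp. It was 1979.5 without E2f1 as well, a check chosen after seeing the data. The 15 genes of the wider list became 9 with a flank of 500 bp, 8 in gene bodies, 24 with 5000 bp and 9 with the 1698 highest IDR peaks. Of 60 recomputed counts for single genes, 15 moved by over 1.5 times. Read depth, unknown here, limits what an absent peak can show.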
